A study of Mus musculus with 4 samples.

Results

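Mammary glands of mice that lack Sca-1 were compared with wild-type glands on 2 microarrays, 1 per genotype, across every gene that the platform annotation names. Sca-1 (stem cell antigen-1) is a small lipid-anchored surface protein of the Ly6 family that is used to enrich stem and progenitor cells. The members are the genes with a probe set of 1 gene symbol, 12393 in all, read from 20393 of the 22690 probe sets on the array. Of these genes 7688 had a signal at or above a floor of 168, the median of all values in the series, in at least 1 of the glands and were compared, while 4705 lay below it in both. The mice were nulliparous C57BL/6 females. The knockout mice lacked Sca-1, with no further detail of the allele in the labels, the wild-type mice were littermates of the same age, and the glands of both were taken at 6 weeks. The group labels name standard chow and no carcinogen for the glands, although 1 treatment protocol is attached to all samples. The other 2 of the 4 arrays hold tumors of both genotypes, induced with a subcutaneous 15 mg dose of the depot progestin MP and 4 weekly gavages of 1 mg of DMBA, a carcinogenic hydrocarbon.

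Each array was hybridised with RNA pooled from 5 mice. There were therefore no replicates, no test was possible, and every difference is between 1 pool and another. Differences are given as log2(signal + 27.3) in knockout minus wild type, and a gene is counted as "higher" or "lower" when it differs by 2-fold or more on that scale, which understates the folds of dim genes. The gland arrays had median signals of 167 in wild type and 199 in knockout and correlated at r = 0.985 over all probe sets. A gauge of noise comes from 2472 genes with several probe sets at or above the floor. From them the difference of 1 probe set had an estimated spread of 0.22 on the log2 scale. This is the scaled median absolute deviation of the disagreement between 2 probe sets of a gene, divided by the square root of 2. It is taken about the median disagreement. A shift common to the dimmer probe sets is thus removed, and large disagreements count little. Of the 2472 genes 16 were past 2-fold by the brightest probe set. All 16 had the same sign by the next brightest and 10 were past 2-fold by both, but a dimmer probe set of Gpaa1 had the opposite sign. Variation from mouse to mouse is not part of this spread. The Sca-1 transcript itself was not analysed here, since the annotation used gives its gene to none of the probe sets.

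The mammary gland of a young virgin female is mostly fat, with a sparse tree of ducts made of an inner luminal and an outer myoepithelial layer, in a stroma of fibroblasts, vessels and immune cells. Lymph nodes lie inside the fat pad, brown-like adipocytes occur in it at young ages, and skin muscle and, at the neck, salivary glands lie close to the pads. In RNA of whole tissue, fewer cells of a type and less RNA per cell cannot be told apart. Both arrays held the defining genes of mammary tissue. The luminal keratin Krt8 had signals of 6398 in wild type and 4987 in knockout, the myoepithelial actin Acta2 5951 and 5810, and the adipokine Adipoq 8382 and 7674. Both also held skeletal muscle RNA, with Myh4, a fast myosin, at 7347 and 7172.

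Few genes differed. In the knockout gland 78 of 7688 genes were higher (1.01%) and 21 were lower (0.273%), and the median of all genes was 0.003, with quartiles of -0.16 and 0.20, 50.4% of genes positive and 49.5% negative. At 1.5-fold the counts were 405 (5.27%) and 93 (1.21%). Over the 11259 named probe sets at the floor, 186 were higher (1.65%) and 24 lower (0.213%). The 2 directions differed in size. Only 6 of the 78 higher genes were past 4-fold and none was past 10-fold, whereas 12 of the 21 lower genes were past 4-fold and 8 were past 10-fold. Many calls rested on a signal that crossed the floor on 1 array, 46 of the higher and 13 of the lower genes. Over the 7151 genes at or above the floor on both arrays, 32 were higher (0.447%), 8 were lower (0.112%) and 48.4% were positive. The balance of directions depended on the scaling. With each array centred on its median, which put the all-gene median at -0.23, 37 genes were higher and 38 lower, and the split was 48 and 30 after quantile normalization and 51 and 28 after cyclic loess.

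The difference also varied with brightness. In 5 equal groups of genes from dimmest to brightest, the median was 0.16, 0.07, 0.02, -0.05 and -0.11, and 71.9% of the 1538 genes in the brightest group were negative. As a sign of RNA integrity, the signal of the 3' control probe set divided by that of the 5' one was 2.35 in wild type and 1.61 in knockout for beta-actin and 1.72 and 0.988 for Gapdh. Its part in the differences was not tested. List medians are therefore given with the median after cyclic loess, which fits and subtracts the trend with brightness. Centring on the median lowers every difference by about the shift given above, so that small positive medians turn negative under it.

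**Figure D1:**
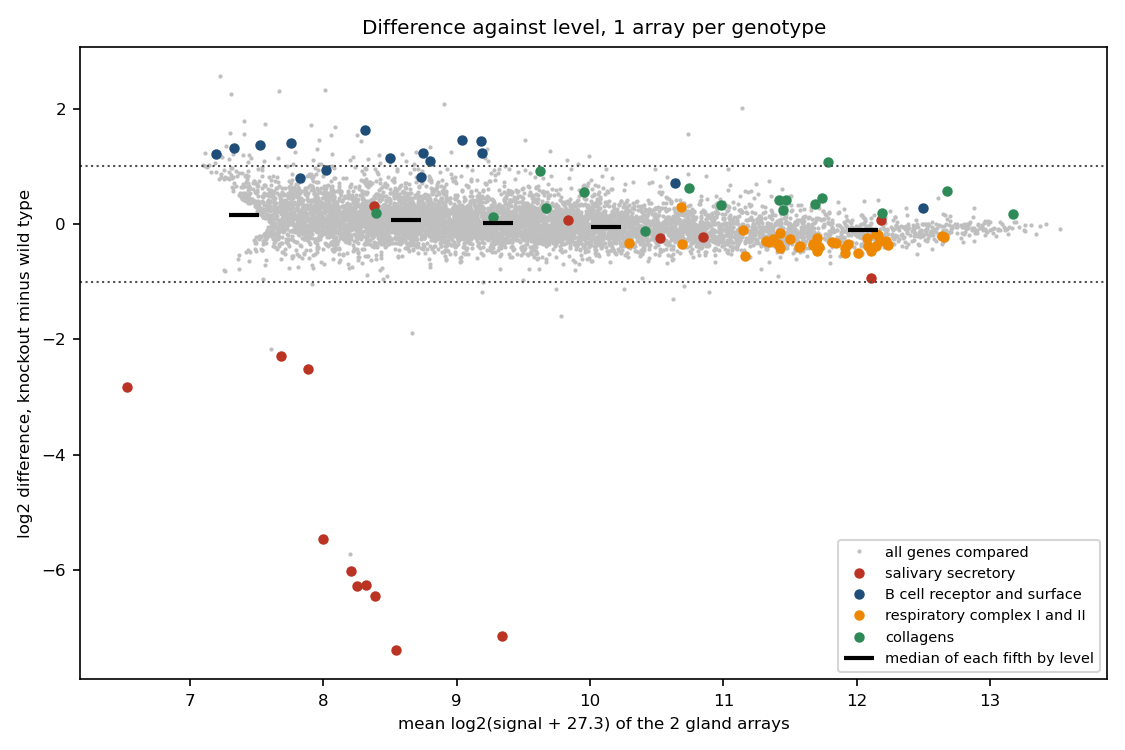
Log2 difference (knockout minus wild-type gland) against the mean log2(signal + 27.3) of both glands for the 7688 genes compared, with 4 gene lists in colour; dotted lines mark 2-fold, and black dashes mark the median of each of 5 equal groups by level, drawn at the middle of its range. Of the 16 salivary genes, 10 form the low cloud down to -7.40 and 6 lie within 2-fold. The B cell genes lie between 0.28 and 1.64. Most of the bright respiratory chain genes lie just below 0 and most collagens just above it.

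The largest differences were in secretory proteins known from saliva, which were bright in the wild-type gland and near background in the knockout gland. They include Smr3a, an androgen-regulated protein of the submandibular gland, Bpifa2, an abundant antibacterial protein of parotid saliva, and Pip, the prolactin-inducible protein of exocrine secretions. The stretches from 250 bases before to 50 bases after the annotated start (RefSeq, GRCm38.p6) are shown for these 3 and for the adjacent secretoglobin genes Scgb2b27 and Scgb1b27, because the first 3 are defining salivary genes and the last 2 are adjacent genes that both differed. Capitals mark TATAAA, a core promoter element, on either strand.

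Smr3a (chr5:88002275-88002574 plus strand): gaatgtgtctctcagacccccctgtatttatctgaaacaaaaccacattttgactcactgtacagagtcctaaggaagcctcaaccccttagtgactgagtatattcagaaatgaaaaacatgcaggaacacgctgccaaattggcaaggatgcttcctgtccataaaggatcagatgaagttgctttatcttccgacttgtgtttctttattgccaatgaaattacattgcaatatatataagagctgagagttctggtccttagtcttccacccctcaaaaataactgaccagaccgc
Bpifa2 (chr2:154008026-154008325 plus strand): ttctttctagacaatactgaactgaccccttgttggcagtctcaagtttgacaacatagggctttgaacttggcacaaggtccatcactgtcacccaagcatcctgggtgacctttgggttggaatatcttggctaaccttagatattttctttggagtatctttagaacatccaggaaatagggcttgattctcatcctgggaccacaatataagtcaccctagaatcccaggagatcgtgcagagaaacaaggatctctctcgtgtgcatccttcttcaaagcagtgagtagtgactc
Pip (chr6:41847299-41847598 plus strand): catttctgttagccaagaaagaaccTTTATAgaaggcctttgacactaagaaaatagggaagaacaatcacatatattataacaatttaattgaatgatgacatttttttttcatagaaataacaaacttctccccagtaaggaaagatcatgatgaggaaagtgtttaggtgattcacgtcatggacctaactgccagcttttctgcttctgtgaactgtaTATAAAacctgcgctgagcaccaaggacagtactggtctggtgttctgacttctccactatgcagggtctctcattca
Scgb2b27 (chr7:34013893-34014192 minus strand): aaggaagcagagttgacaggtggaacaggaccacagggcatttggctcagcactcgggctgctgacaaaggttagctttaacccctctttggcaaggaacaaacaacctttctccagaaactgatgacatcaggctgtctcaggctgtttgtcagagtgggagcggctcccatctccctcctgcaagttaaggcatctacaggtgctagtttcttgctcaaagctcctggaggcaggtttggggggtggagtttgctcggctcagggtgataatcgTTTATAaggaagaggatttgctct
Scgb1b27 (chr7:34021231-34021530 plus strand): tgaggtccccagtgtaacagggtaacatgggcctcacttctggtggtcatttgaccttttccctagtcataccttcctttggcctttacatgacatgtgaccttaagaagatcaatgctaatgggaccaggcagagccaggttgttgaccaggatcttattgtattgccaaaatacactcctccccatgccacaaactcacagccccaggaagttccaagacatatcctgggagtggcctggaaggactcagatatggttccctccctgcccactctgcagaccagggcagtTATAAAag

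In Pip the 2 matches begin 225 and 28 bases before the start, the second on the strand of the gene. In Scgb2b27 and Scgb1b27 the match begins 26 and 42 bases after the start, and these letters are not in the windows of Smr3a and Bpifa2. TATAAA was held by 5 of the 10 salivary genes that were lower in the knockout (50%), namely Chia1, Dnase1, Pip, Scgb1b27 and Scgb2b27, against 13.6% of 32851 promoters of that length. CCAAT was in 4 of the 10 (40%), against 37.4% of all. TATAAA was also in 4 of 11 B cell genes that were higher in the knockout (36.4%), so its share is not particular to the salivary genes. The gene sets are counted by gene and the full table by promoter. The motifs, searched on both strands, were chosen after the genes were known, and a match is a description of the letters, not a site.

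Of 31 named salivary secretory genes 16 were compared. Of these 10 were lower and the other 6 differed by less than 2-fold, and the list had a median of -2.68 (-2.87 after loess). All 10 reached the floor in the wild-type gland alone, so the floor selected them by the array on which they were high. The other 6, at or above it on both arrays, had a median of -0.08. The summed signal of all 31 genes was 42035 in wild type and 12733 in knockout. With 1 pool per genotype, salivary tissue taken with 1 pool and an effect of genotype cannot be told apart. Neither was tested.

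Smr3a had 4808 units of signal in the wild-type pool and 1.4 units in the knockout pool. Set against the floor, since the knockout signal is at background, it was at least 24.7-fold lower. Bpifa2, at 7706 and 27.0, was at least 39.6-fold lower. The acidic chitinase Chia1 had 3107 and 8.6, the secreted carbonic anhydrase Car6 2774 and 9.2, the endonuclease Dnase1 2658 and 7.4, Pip 2358 and 9.5, and the cystatin Cst10 1670 and 11.2. These 5 were at least 8.69-fold to 16.0-fold lower. The decreases of the dimmer genes were smaller by this bound. Dcpp3, a demilune and parotid cell protein, went from 537 to 71.2 (at least 2.89-fold), Scgb1b27 from 428 to 65.5 (2.33-fold) and Scgb2b27 from 219 to 7.3 (1.26-fold). Scgb2b27 and Scgb1b27 are neighbours on chromosome 7 and are both androgen-binding protein subunits of secretions.

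Other members bright in both glands differed less. The salivary amylase Amy1 had 6072 and 3177, a difference of -0.93. The water channel Aqp5 had 1973 and 1678, the lysozyme Lyz1 4503 and 4748, and Smr2, a relative of Smr3a, 863 and 911. Of these Aqp5 is also made outside salivary glands, by lung epithelium. Lyz1 was read from a probe set marked as shared, which can bind RNA of other genes. Below the floor in both glands were 15 members, among them Lpo, a salivary peroxidase, at 89.6 and 9.4, and the proline-rich protein Prpmp5 at 133 and 1.1. The salivary duct list, with 4 of 16 members compared, had none past 2-fold and a median of 0.05 (0.11 after loess). Its defining members Klk1, a kallikrein, at 141 and 50.4, and Egf, at 138 and 108, did not reach the floor in either gland. In the tumors the 10 lower genes were mostly dim, with Smr3a at 13.4 and 22.1 and Bpifa2 at 1.2 and 7.0 in wild type and knockout. Only 2310057J18Rik, a clone name outside the list, joined the 7 list members among the 8 genes past 10-fold. It was chosen after its values were seen and had signals of 2113 and 13.2.

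**Figure D2:**
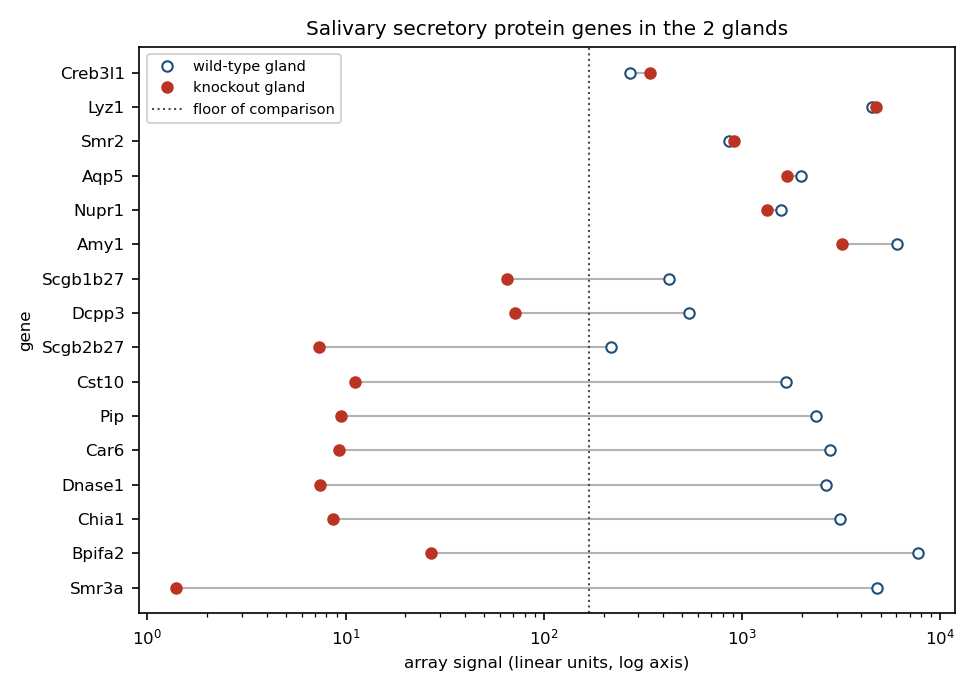
Array signal (linear units on a log axis) of the 16 compared salivary secretory genes in the wild-type gland (open) and the knockout gland (filled), with the floor of 168 as a dotted line. In 10 genes the knockout point lies left of the floor, at 71.2 or below, while Amy1, Nupr1, Aqp5, Smr2, Lyz1 and Creb3l1 stay above it in both glands.

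Genes of leukocytes and lymphoid tissue made up the largest group among the higher genes. Over 13 leukocyte and lymphoid lists together, 128 genes were compared, 29 were higher (22.7%), none was lower and 114 were positive. Over all genes compared, 1.01% were higher and 50.4% positive. Of the 128 genes 37 reached the floor on 1 array only. Among the 91 on both, 14 were higher and none was lower, where 0.447% of all genes on both arrays were higher. The common leukocyte phosphatase Ptprc (CD45), in no marker set used here and looked up afterwards, had 1881 and 3053.

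B cell genes differed most. The B cell receptor signals through Cd79a and Cd79b, is tuned by Cd22, Cd72 and the complement receptor Cr2, and leads through the kinases Blk and Btk to transcription factors such as Spib and Pou2af1. Of 16 compared receptor and surface genes 11 were higher, all 16 were positive, and the median was 1.22 (1.07 after loess). On both arrays 9 reached the floor, with all 9 positive, 6 higher and a median of 1.14. The summed signal was 9251 in wild type and 15478 in knockout.

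Cd79a had signals of 277 in wild type and 627 in knockout, a difference of 1.10. Cd79b had 353 and 871, a difference of 1.24. Ms4a1 (CD20), the target of anti-B-cell antibodies, had 326 and 929 (1.44), and its other probe set at the floor had 1.17. The inhibitory receptor Cd22 had 290 and 846 (1.46), with 2.04 by a dimmer probe set. All 4 genes of the mature B cell surface were higher past 2-fold with both signals above the floor. The low-affinity IgE receptor Fcer2a, at 153 and 535, and Cr2, at 106 and 325, are found on follicular B cells and on follicular dendritic cells. Both reached the floor in the knockout gland alone, as did the Fc receptor-like genes Fcrla (87.2 and 270) and Fcrl1 (74.5 and 228), and the follicle-homing receptor Cxcr5 (68.8 and 195). The smallest differences in the list were those of genes also used by other cells, the lymphotoxin Ltb at 0.72 and the MHC class II chaperone Cd74 at 0.28.

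Among 12 B cell kinases and transcription factors 4 were higher, none was lower, and the median was 0.71 (0.55 after loess). Spib, an ETS factor of B cells, had 151 and 496, and Blk, a Src-family kinase, 129 and 428. Both reached the floor on the knockout array only. Pou2af1, the octamer coactivator, had 240 and 613, and Irf8 384 and 856. The adaptor Blnk (373 and 741) and Btk (215 and 382) lay within 2-fold, and so did the early B cell factor Ebf1 (540 and 688). The plasma cell factor Irf4 went the other way, at 657 and 534. With the floor required on both arrays the median was 0.34 over 9 genes.

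Immunoglobulin genes pointed the same way with more disagreement. Ighg3, an IgG heavy chain, had 34.0 and 338, and the lambda chain gene Iglv1 88.2 and 550. The mu chain Ighm had 1236 and 2273 (0.86) by its brightest probe set, while 3 others at the floor gave 1.46, 1.81 and 0.17. Igha, the IgA heavy chain, was 1730 and 1340, a difference of -0.36. Outside the list, Igkv8-30, at 965 and 2906, and Ighv14-2, at 413 and 1182, were among the 25 largest increases. Probe sets for such gene segments can bind RNA of related segments, so their gene identity is uncertain. Jchain, which joins IgA and IgM polymers, had 555 and 994. Of the plasma cell genes, Sdc1 had 734 and 984 and the secretory regulator Xbp1 5689 and 5211, with 0.09 to 0.37 by other probe sets.

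T cell genes lay higher by less. All 16 compared members were positive, 2 were past 2-fold, and the median was 0.70 (0.56 after loess), or 0.55 over the 8 members at the floor on both arrays. The invariant chains of the T cell receptor complex differed by 0.54 to 0.71, with Cd3d at 450 and 665, Cd3g at 406 and 654 and Cd3e at 108 and 193. The coreceptor of cytotoxic T cells Cd8a had 130 and 361 and its partner Cd8b1 148 and 318. The helper coreceptor Cd4 was below the floor in both glands, at 25.8 and 41.6. The interleukin-7 receptor Il7r, which sustains naive lymphocytes, had 295 and 742. Zap70, the receptor's kinase, differed by 0.25. Of 4 compared NK and cytotoxic genes 1 was higher, the chemokine Ccl5 at 652 and 1507, and the granzyme Gzma was 132 and 212.

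**Figure D3:**
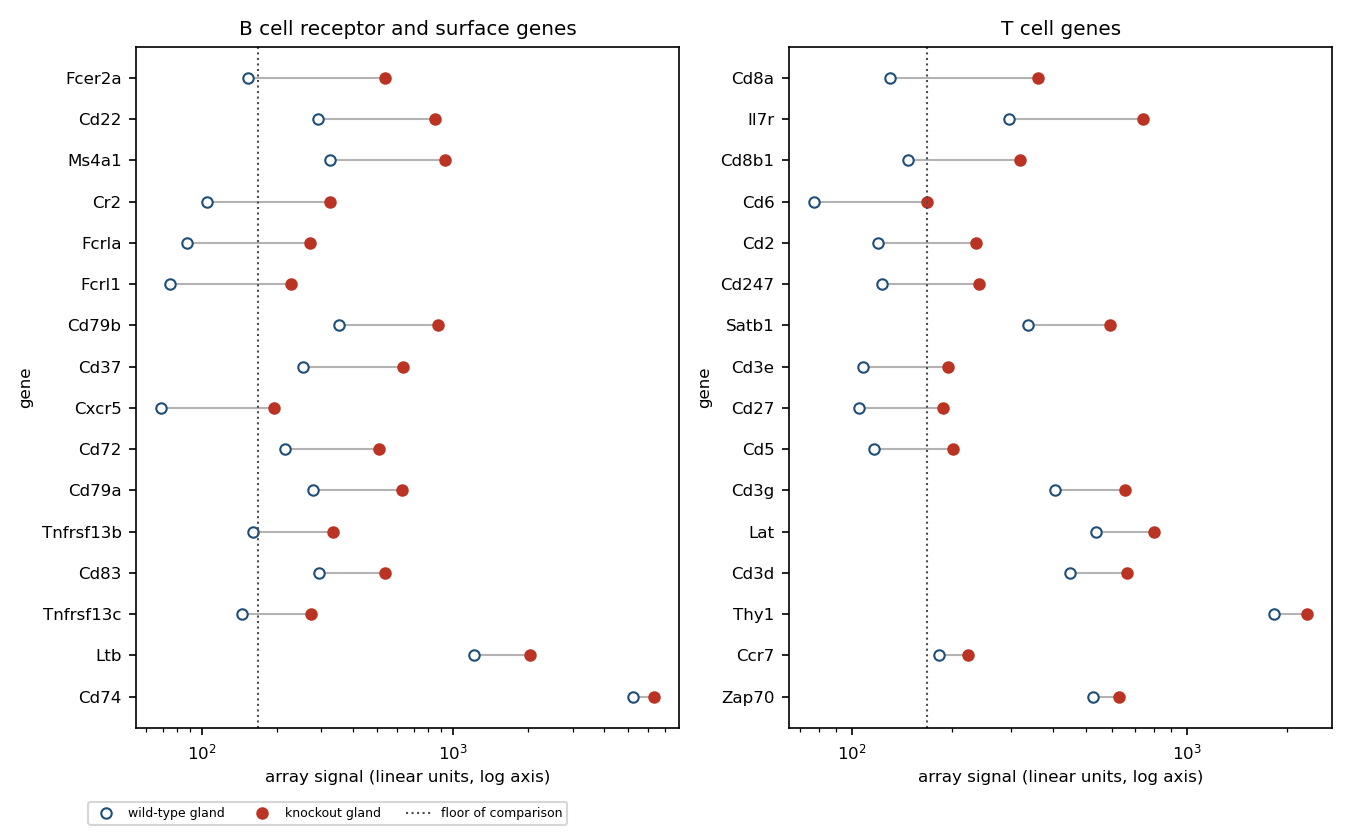
Array signal (linear units on a log axis) in the wild-type (open) and knockout gland (filled) of the 16 compared B cell receptor and surface genes (left) and the 16 compared T cell genes (right), with the floor of 168 dotted. Every knockout point lies to the right of its wild-type point, and the gaps are wider for the B cell genes (median 1.22) than for the T cell genes (0.70).

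Of the genes of lymphoid organ architecture, Cxcl13 and Glycam1 differed most. High endothelial venules are the vessels through which lymphocytes enter a node. Cxcl13, the chemokine that draws B cells into follicles, had 205 in wild type and 964 in knockout, a difference of 2.09, with 1.68 by its other probe set. Glycam1, a sulphated mucin of high endothelial venules that is also secreted by the milk-forming epithelium, had 1091 and 4514 (2.02). Of the 11 compared genes of the list 4 were higher, the 2 others being Fcer2a and Cr2, which the B cell list also holds, and the median was 0.37 (0.20 after loess). Other venule genes were below the floor or differed little. The homing ligand Madcam1, at 49.7 and 65.6, and the sulphotransferases Chst2, at 37.6 and 59.5, and Chst4, at 35.4 and 58.7, stayed under the floor on both gland arrays, and the venule chemokine receptor Ackr1 had 467 and 502. The stromal factor Cxcl12 had 1715 and 2221, and the lymphotoxin receptor Ltbr 624 and 640. The reticular cell protein Pdpn had 840 and 700. The promoter of Cxcl13, which had the largest difference in this list, holds TATAAA 46 bases before the start, again in capitals.

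Cxcl13 (chr5:95956689-95956988 plus strand): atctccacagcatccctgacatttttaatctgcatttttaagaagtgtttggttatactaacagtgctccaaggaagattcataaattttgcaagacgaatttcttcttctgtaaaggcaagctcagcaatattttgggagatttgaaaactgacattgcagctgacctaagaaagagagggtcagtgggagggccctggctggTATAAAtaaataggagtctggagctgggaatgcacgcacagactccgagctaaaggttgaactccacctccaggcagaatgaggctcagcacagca

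Of the 15 B cell genes that were higher (11 surface, 4 kinase and transcription factor genes), 11 had a promoter in the table. AGGAAGT, an ETS-type motif, was in 4 of the 11 (36.4%), those of Cd37, Cd72, Cd79a and Fcrl1, against 9.35% of all promoters. The immunoglobulin octamer ATGCAAAT was in none of the 11, against 1.74% of all. TATAAA was in 4 of the 11 (36.4%) and CCAAT in 5 (45.5%), against 13.6% and 37.4% of all promoters. Of the 10 lower salivary genes 1 held AGGAAGT (10%) and none held ATGCAAAT.

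Macrophage genes lay slightly higher as a list. Of 23 compared members 2 were higher, 21 were positive, and the median was 0.36 (0.34 after loess). The scavenger receptor Marco had 64.0 and 423 and the arginase Arg1 45.1 and 321, both with a wild-type signal below the floor. The general macrophage markers differed less, with Csf1r, the CSF-1 receptor, at 2890 and 3553, Adgre1 (F4/80) at 681 and 789 and Cd68 at 371 and 624. Retnla, a marker of alternatively activated macrophages, was bright in both at 8426 and 7675, and Mrc1 had 1668 and 1926. Cd209b, the lectin SIGN-R1 of marginal zone and lymph node sinus macrophages, had 161 and 487.

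Granulocyte genes split. The calprotectin subunits S100a8 (105 and 409) and S100a9 (75.8 and 318), neighbours on chromosome 3, and the granule protein Ngp (70.8 and 264) were higher, each with a wild-type signal below the floor. Lcn2 and Ltf, granule proteins that mammary epithelium also makes, had 2341 and 2001 and 1623 and 1222. With the floor required on both arrays these 2 alone remained of the 6, and the list median of 0.94 became -0.31. The haematopoietic cytokine receptor genes Csf2rb and Csf2rb2 lay with the oxidase subunit Ncf4 in a row of 3 higher genes on chromosome 15. Csf2rb had 211 and 470, Csf2rb2 370 and 857 and Ncf4 148 and 337. Csf2rb and Csf2rb2 are close copies, and their probe sets may share signal. Dendritic cell genes (9 compared) had a median of 0.34 (0.28 after loess) with none past 2-fold, and mast cell genes (4 compared) 0.41 (0.35 after loess), with the chymase Mcpt4 at 252 and 460.

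Antigen presentation differed by class. Of 8 compared MHC class II genes 2 were higher, H2-DMb2 (172 and 421) and H2-Oa (172 and 404), parts of the peptide-loading machinery, and the median was 0.35 (0.40 after loess). The classical chains H2-Ab1, at 1852 and 2311, and H2-Eb1, at 3229 and 4232, differed by 0.32 and 0.39, and H2-Aa by -0.01. The 14 compared MHC class I genes had a median of 0.02 (0.12 after loess), with 7 positive and 7 negative. B2m had 7707 and 7647 and H2-K1 7129 and 6969. Interferon-stimulated genes showed no common shift, with 12 of 19 positive, none past 2-fold and a median of 0.09 (0.09 after loess). Irf7 differed by 0.80, and Rsad2 by -0.37 or, by other probe sets, 0.40 and 0.59. Complement genes were positive in 11 of 13, with none past 2-fold and a median of 0.33 (0.42 after loess). The largest was C1qa, at 1481 and 2890, while its partner chains C1qc and C1qb differed by 0.56 and 0.17. Of 21 chemokines and receptors 3 were higher, Cxcl13, Cxcr5 and Ccl5, and the T cell zone chemokine receptor Ccr7 differed by 0.26.

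Of the brown fat genes, Ucp1 and Cidea were lower in the knockout gland. Brown and beige adipocytes burn fuel in mitochondria that Ucp1 uncouples, under the coactivator Ppargc1a. Ucp1 had 754 in wild type and 183 in knockout, a difference of -1.90. Cidea, a lipid droplet protein of brown fat, had 1242 and 552 (-1.13). Of 12 compared members these 2 were lower and none was higher, 8 were negative, and the median was -0.51 (-0.48 after loess, with 10 negative). Over all genes compared, 0.273% were lower and 49.5% were negative. Both signals of Ucp1 and of Cidea were above the floor of 168, but that of Ucp1 in knockout was close to it. Ppargc1a reached the floor in the wild-type gland alone.

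Within 2-fold lay 10 members. Lower by less than that were Ppargc1a (234 and 107), the muscle-type cytochrome oxidase subunit Cox8b (3237 and 2043), the pantothenate kinase Pank1 (354 and 198), the fatty acid elongase Elovl6 (4507 and 3076), Cox7a1 (709 and 502) and the potassium channel Kcnk3 (312 and 257). Esrra, an estrogen-related receptor that drives mitochondrial genes, had 330 and 388, the nucleoside transporter Slc29a1 397 and 652, the coactivator Ppargc1b 203 and 225 and Letmd1 719 and 725. The 9 members below the floor in both brought the median over all 21 named genes to -0.13. In the tumors Ucp1 had 0.9 and 0.6 and Cidea 35.7 and 18.5, so the tumor pair gives no comparison for them.

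White fat genes differed little. None of 28 compared white adipocyte genes was past 2-fold, and the median was -0.04, which turned to 0.06 after loess. Fabp4, the fatty acid carrier of adipocytes, had 10943 and 10917, with -0.20 to 0.82 by other probe sets, Adipoq 8382 and 7674 and the lipase Lipe 3255 and 3660. The nuclear receptor Pparg, the main regulator of fat cell formation, had 1870 and 1339 (-0.47) and Igf1 2901 and 2244. The imprinted gene Mest, which follows adipocyte enlargement, had 253 and 424. Of 25 genes of fatty acid and triglyceride synthesis 18 were negative, with a median of -0.10 that was near 0 after loess (-0.01). The mitochondrial acetyl-CoA carboxylase Acacb had 1216 and 692, the acyltransferase Gpam 6682 and 4681 (-0.51, but 0.43 by another probe set), and Scd1, the abundant desaturase, 7260 and 7477. Cholesterol synthesis genes (17 compared) had a median of -0.01 (-0.04 after loess), with Fdps at 0.84 and Pmvk at -0.49.

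**Figure D4:**
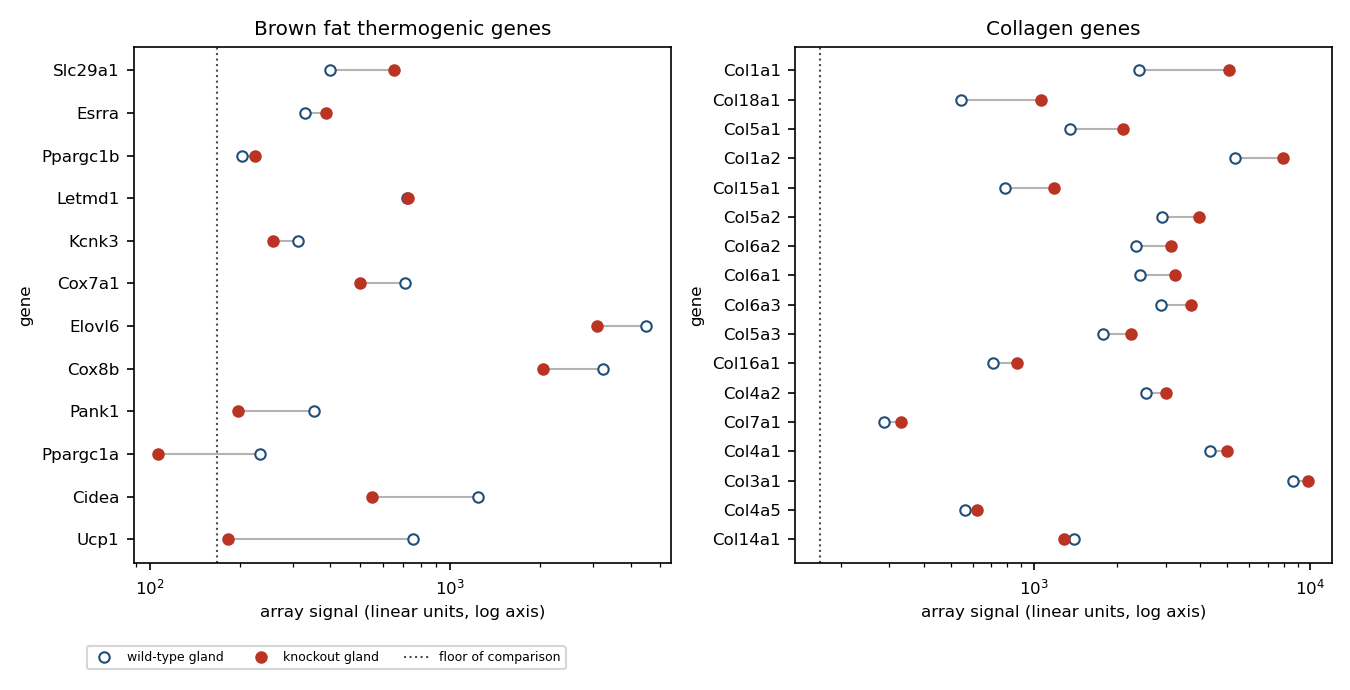
Array signal (linear units on a log axis) in the wild-type (open) and knockout gland (filled) of the 12 compared brown fat genes (left) and the 17 compared collagen genes (right), with the floor of 168 dotted. The knockout points lie to the left for 8 of the brown fat genes, most for Ucp1 and Cidea, and to the right for 16 of the collagens.

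Most mitochondrial genes had small negative differences, none of them 2-fold. Respiratory chain complexes pass electrons from fuel to oxygen and make ATP, and their subunits are mostly encoded by bright, widely expressed nuclear genes. Over the respiratory chain, citric acid cycle and fatty acid oxidation lists together, 115 genes were compared, 108 were negative (93.9%), none was past 2-fold, and the median was -0.27. Since 71.9% of genes in the brightest group were negative, the values after loess, where 46.2% of all genes were positive, are set beside these. For complexes I and II, 36 of 37 were negative both before and after loess, with medians of -0.34 and -0.24. For complexes III, IV and V, 35 of 38 were negative before and 31 after, with medians of -0.23 and -0.10. All 19 citric acid cycle genes were negative, and 18 after loess, with medians of -0.19 and -0.09. Of fatty acid oxidation genes 19 of 22 were negative in both, with medians of -0.26 and -0.17.

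The complex I subunit Ndufa5 had 2753 and 1869 (-0.55), Ndufb8 4568 and 3210 (-0.51) and Ndufv2 5140 and 3730 (-0.46). Of the 37 compared genes of complexes I and II, Ndufa10 alone was positive, at 1461 and 1791 (0.29), but -0.21 by another probe set. In complex III, the small subunit Uqcr10 had 3325 and 2223 (-0.57). ATP synthase genes were spread from Atp5h, at -0.35, to Atp5g1, at 0.07, with the catalytic subunit Atp5b at 7304 and 7310. In the citric acid cycle the ADP-forming succinyl-CoA ligase subunit Sucla2 had 4132 and 2990 (-0.46). Pdk4, which blocks pyruvate entry when fat is burnt, had 3238 and 1868 (-0.79), and Fabp3, the fatty acid carrier of heart and brown fat, 550 and 318 (-0.74). The probe sets of Cpt1a, the liver-type gatekeeper of fatty acid import, disagreed, with 0.42 by the brightest, at 805 and 1088, and -0.53 and -0.01 by 2 others. In the tumor pair the medians of these 4 lists lay between -0.01 and 0.06.

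Glycolysis and pentose phosphate genes were negative in 19 of 23, but in 14 after loess, with medians of -0.11 and -0.02. Taldo1, transaldolase, had the largest difference, at 4989 and 3394. Skeletal muscle uses the same mitochondrial machinery, and its part in the mitochondrial differences was not tested. The 22 compared fibre genes had a median of -0.05 (0.06 after loess), with the muscle actin Acta1 at 7121 and 7159 and the creatine kinase Ckm at 6632 and 5917. The 16 muscle calcium and metabolic genes had a median of 0.002 (0.05 after loess). None of either list was past 2-fold, and the fibre genes ranged up to 0.71, for the cardiac actin Actc1.

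Most genes of the extracellular matrix had small positive differences. Of 49 collagen and matrix genes 1 was higher past 2-fold (2.0%), near the 1.01% of all genes. Of 17 compared collagen genes 16 were positive, 1 was past 2-fold, and the median was 0.35 (0.45 after loess), although 11 of them belong to the brightest group, where most genes were negative. Fibrillar collagens I, III and V give tissue its tensile strength. Col1a1 had 2398 in wild type and 5089 in knockout (1.08), but 0.45 by its other probe set, at 2163 and 2957. Col1a2, its partner chain, had 5355 and 7983 (0.57), Col5a1 1354 and 2099 (0.62) and Col3a1 8643 and 9767 (0.18). The basement membrane chains Col4a1 and Col4a2 differed by 0.20 (1.01 by another probe set of Col4a1) and 0.24, and Col18a1, whose fragment is endostatin, by 0.92, at 547 and 1058. Col14a1 was the exception, at 1393 and 1287.

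Of 32 proteoglycan and glycoprotein genes 24 were positive, none was past 2-fold and the median was 0.22 (0.28 after loess and -0.007 with each array centred on its median). Relative to the median of all genes, the proteoglycan median ranged from 0.14 to 0.31 over all settings and that of the collagens from 0.29 to 0.51. Ltbp4, which stores latent TGF-beta and helps to build elastic fibres, had 421 and 805, the matricellular protein Thbs1 359 and 623 and Fbln2 332 and 571. Postn and Sparcl1 differed by -0.02 each. Fibroblast genes were mixed, with 13 of 21 positive and a median of 0.08 (0.155 after loess). The receptor Pdgfra had 1682 and 2561 (0.60) and the intermediate filament Vim 5340 and 7297 (0.45), while Pi16, a marker of adventitial fibroblasts, had 2305 and 1684 and Dcn 7167 and 7792. Matrix metalloproteinases and inhibitors (17 compared) had a median of 0.13 (0.12 after loess). Timp4 had 1215 and 794 and Mmp14 885 and 1143 (0.36), but 0.09 and 1.38 by their other probe sets.

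Vessel genes were positive in 18 of 22, with none past 2-fold and a median of 0.25 (0.245 after loess). The adhesion molecule Pecam1 had 440 and 732 and the diaphragm protein Plvap of fenestrated vessels 294 and 553. The VEGF receptor Kdr, at 719 and 715, and the junction protein Cldn5, at 875 and 707, did not share this. The lymphatic hyaluronan receptor Lyve1 had 1211 and 2074 (0.76), in a list of 7 with a median of 0.29 (0.27 after loess). Smooth muscle and pericyte genes (15 compared) had a median of 0.06 (0.06 after loess).

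**Figure D5:**
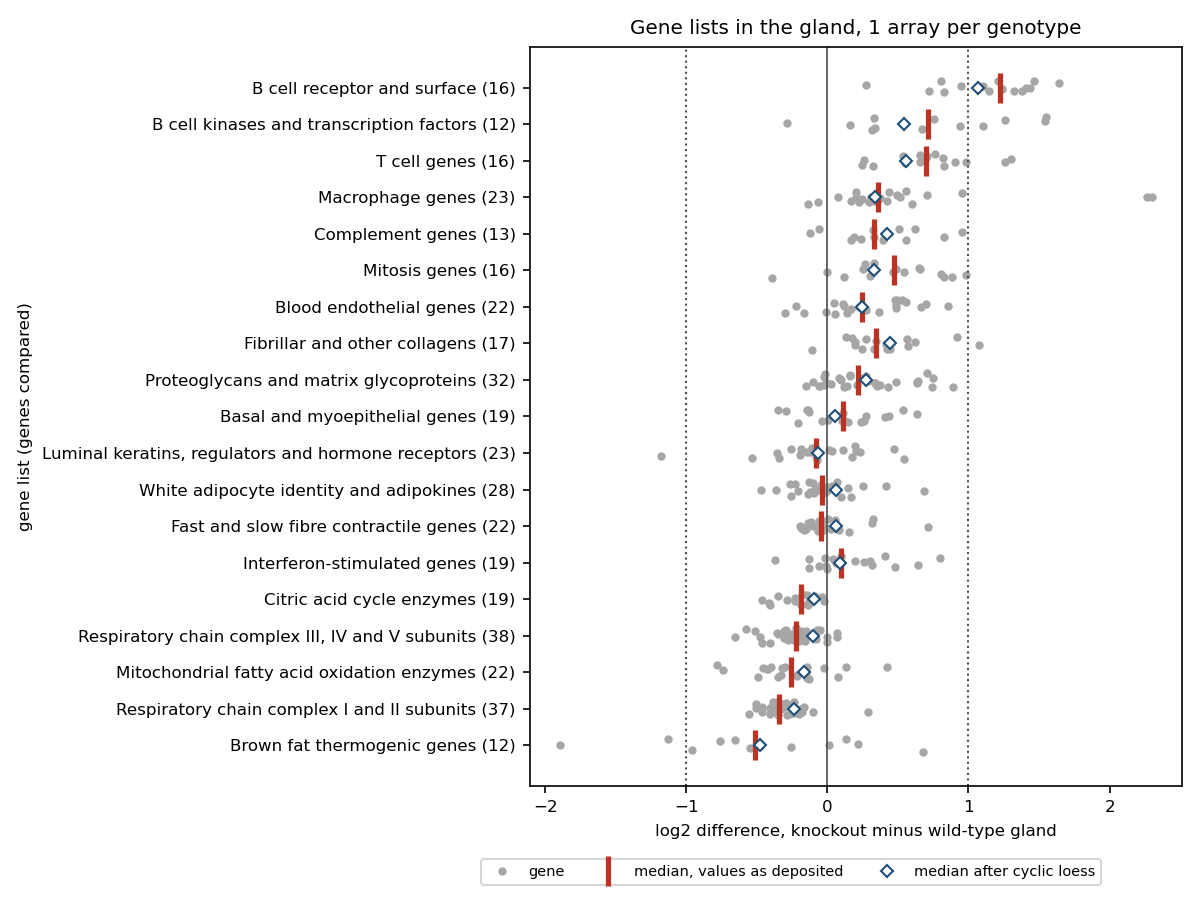
Log2 difference (knockout minus wild-type gland) of each compared gene (grey) in 19 gene lists, with the list median for values as deposited (bar) and after cyclic loess (diamond); dotted lines mark 2-fold, and the number of genes compared is in brackets. Of the lists shown, B cell receptor and surface genes lie farthest to the right and brown fat genes farthest to the left. White adipocyte, muscle fibre, luminal and basal lists stay near 0. The salivary, neutrophil and immunoglobulin lists are among those not shown.

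Most epithelial genes compared differed by less than 2-fold between the 2 glands. Of 23 luminal genes 1 was lower, none was higher and the median was -0.08 (-0.065 after loess). That gene was Foxa1, the pioneer factor that opens chromatin for the estrogen receptor, at 2842 in wild type and 1239 in knockout (-1.18). In the tumors it had 3329 and 3274. The luminal keratins Krt8 and Krt18 differed by -0.36 and -0.34 and Epcam by -0.20, and the alveolar factor Elf5 by 0.18. Estrogen and progesterone receptor genes were below the floor in both glands, with Esr1 at 8.1 and 28.6 and Pgr at 50.5 and 57.8. Of 19 basal genes none was past 2-fold and the median was 0.11 (0.05 after loess). Krt5 had 458 and 501, Krt14 624 and 562, Trp63, the basal lineage factor, 508 and 436 and the integrin Itga6 2311 and 3145. Among 20 stem and progenitor markers, the list closest to the use of Sca-1, none was past 2-fold and the median was 0.09 (0.13 after loess). At 1.5-fold 5 of the 20 were higher and none was lower, against 5.27% and 1.21% of all genes. The largest difference was that of Lgr6, at 100 and 202, which reached the floor in the knockout gland alone. The laminin-binding partner Itgb1 had 1141 and 1823, Cd44 217 and 393 and Cd24a 5581 and 4640.

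Milk genes (9 compared) had 1 higher member, Glycam1, and a median of -0.09, which turned to 0.065 after loess. Csn3, kappa-casein, had 3076 and 2848. Among 9 keratinocyte genes Krt6a, a keratin of stressed epithelium, was higher at 63.8 and 289, and so was the crosslinking enzyme Tgm1 at 69.4 and 220, both with a wild-type signal below the floor. The skin markers Krt1 (1.3 and 4.2) and Lor (123 and 76.4) were below it in both. The Ly6 family, to which Sca-1 belongs, had 4 of 14 members compared and none past 2-fold. Ly6d, a marker of keratinocytes and lymphoid progenitors, had 3679 and 1965, the nicotinic receptor modulator Lynx1 252 and 137, Cd59a 1757 and 1685 and Plaur 163 and 179. The family median of -0.41 (-0.45 after loess) turned to 0.10 when its 10 dim members were included.

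Growth factor pathways showed no common shift. TGF-beta, activin and BMP genes (25 compared) had 1 higher member, the co-receptor Tgfbr3 at 64.2 and 245, and a median of 0.12 (0.08 after loess). The ligand Tgfb1 had 187 and 396 and the BMP-like Gdf10 392 and 543. Wnt genes (20 compared) had a median of 0.16, which was 0.05 after loess, with Wnt5a, a ligand that restrains branching, at 520 and 332. Notch and Hedgehog genes (19 compared) had a median of 0.04 (-0.03 after loess), with the Hedgehog receptor Ptch1 at 775 and 534. EGF, FGF and IGF genes (22 compared) had 0.08 (0.01 after loess) and nuclear receptors (14 compared) -0.07 (-0.12 after loess). Apart from Tgfbr3 none of these lists held a member past 2-fold.

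Genes of dividing cells were mostly positive and none was past 2-fold. Of 16 compared mitosis genes 14 were positive, with a median of 0.48 (0.33 after loess), and 7 of the 16 reached the floor on the knockout array alone. The proliferation antigen Mki67 had 157 and 337 and the topoisomerase Top2a 165 and 314. Over the 9 at the floor on both arrays the median was 0.27. DNA replication genes had 19 of 23 positive and a median of 0.20 (0.13 after loess), with the helicase subunit Mcm2 at 237 and 361 and Rrm2, which supplies nucleotides, at 149 and 286. The p53 targets (25 compared) had a median of 0.04 (0.05 after loess).

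Stress and housekeeping lists held 1 gene past 2-fold. Rps27, a ribosomal protein gene, had 124 and 462 by its only probe set, with the wild-type signal below the floor. It was far dimmer than small-subunit genes such as Rps18 (10725 and 10524). The other 19 small-subunit genes lay within 2-fold and the list median was -0.05 (0.11 after loess). Large-subunit genes had -0.04 (0.11 after loess), so their sign followed the scaling. Heat shock genes were negative in 21 of 25 (median -0.15), proteasome genes in 25 of 31 (-0.14) and secretory pathway genes in 21 of 27 (-0.09), and these medians were -0.08, -0.08 and -0.05 after loess. Immediate early genes (21 compared) had a median of 0.25 (0.24 after loess), with Ccn1 at 502 and 880 and Fos at 945 and 628. Glutathione and xenobiotic genes (37 compared) had -0.16 (-0.04 after loess), with the extracellular dismutase Sod3 at 455 and 912 and the mitochondrial Sod2 at 3945 and 2844. In the clock list (13 compared, median 0.04, and 0.02 after loess) Arntl had 353 and 220, Bhlhe40 1006 and 572 and Per2 355 and 478. The 11 control genes had a median of -0.08, which turned to 0.02 after loess, with Hprt at 2266 and 2141 and Eef1a1 at 9262 and 9454. They ranged from -0.63, for Tfrc at 1135 and 726, to 0.305, for Gusb at 643 and 800. Actb had -0.30 by its brightest probe set and 0.95 by its other.

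Of the 99 genes past 2-fold 52 were in none of the lists. Lower among them were Lyplal1, a lysophospholipase-like serine hydrolase, at 1501 and 481, Ggh, the hydrolase that trims folate polyglutamates, at 1785 and 800, and the carboxylesterase Ces1f at 2392 and 1122. Zdhhc12, a palmitoyltransferase, had 386 and 64.7 and the apolipoprotein Apoc3 318 and 141. Nme1, a nucleoside diphosphate kinase, had 2442 and 978 by its brightest probe set and 1541 and 1337 (-0.20) by the other, and the brightest also gave -1.13 in the tumors, at 758 and 331. Higher among them were Napsa, an aspartic protease, at 123 and 387, the transporter Slc45a3 at 252 and 682 (1.35, and 0.82 by its other probe set) and, next to Iglv1 in gene order, the glycosyltransferase B3gnt5 at 192 and 449. Further genes were chosen after their values were seen. They are the leukocyte phosphatase Ptpn6 (640 and 1354), the antimicrobial peptide Defb1 (507 and 1263) and the membrane-trafficking protein Ehd2 (353 and 739). For Gpaa1 alone among the 99 did another probe set at the floor have the opposite sign, 1.04 against -0.53, with 0.32 by a further one.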

How the data were processed

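Per the labels and the file, the authors deposited intensity on a linear scale for each probe set of each array, from pools of RNA of 5 mice labelled with biotin per the labels' protocols. Which program computed the signals is not stated in the sources. On the file, both gland arrays had a mean of 500.1 once 2% of probe sets were trimmed at each end, so the authors had scaled the arrays to 1 level.

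Signals were set on the scale log2(signal + 27.3), the offset being the 25% quantile of the 4 arrays' pooled values. Genes were named from the platform annotation, updated through gene identifiers for 20364 probe sets. Probe sets with several symbols (691) or none listed (1606), among these the array's controls, were not used, and each gene was read from the probe set brightest on average in the glands. With 1 array per group no test was made and no error could be given, and precision is limited by having 1 array each. The 65 gene lists, the markers and the groups of lists were chosen with earlier results of these data known, so no list is independent evidence. Of their 1659 genes 977 were compared.

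Named genes are the 25 largest increases and up to 25 largest decreases among genes past 2-fold, without clone names and with no probe set of opposite sign; per list up to 6 members of the largest difference and 4 of the highest signal; the markers; control genes with Gdf10, Pparg, Esr1 and Pgr; and adjacent genes both past 2-fold. Named outside this rule, after values were seen, were Ptprc, Cd4, Cd37, Cd72, Smr2, Creb3l1, Prpmp5, Lpo, Ltbr, Ccr7, Mrc1, C1qb, Lipe, Ndufa10, Atp5h, Atp5g1, Chst2, Chst4, Ackr1, Kcnk3, Ppargc1b, Col4a2, Col14a1, Sparcl1, Cldn5, Trp63 and Sod2, and the genes the text itself says were chosen so.

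The alternatives were median centring, quantile normalization and cyclic loess (limma 3.58.1 in R 4.3.3), other offsets, floors and probe set choices. The procedure was tested on simulated data. Python 3.11.15, pandas 2.3.3 and numpy 2.4.6 were used.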

Additional observations from a re-analysis of the deposited data

Results flagged for a closer look

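In all, 3 genes were past 2-fold in opposite directions in the gland and in the tumor pair, with 1 array per group, and the difference between the tissues was not tested. The calprotectin genes S100a8 and S100a9 were higher in the knockout gland, by 1.72 and 1.75 on the log2 scale. In the knockout tumor they were lower, by -1.53 and -1.93. The gland difference minus the tumor difference was thus 3.25 and 3.67. The salivary gene Dcpp3 was lower in the knockout gland (-2.52) and higher in the knockout tumor (2.37), a difference of -4.89. These sizes depend on the offset, since 1 signal of the pair was below the floor of 168.1 in every case but S100a8 in the tumors. Giving wild type first, S100a8 had gland signals of 105.1 and 409.4 and tumor signals of 741.4 and 238.9, S100a9 had 75.8 and 318.2 and then 432.9 and 93.7, and Dcpp3 had 537.3 and 71.2 and then 91.5 and 585.6. With the dimmer signal raised to the floor, S100a8 was at least 2.23-fold higher in the knockout gland, S100a9 at least 1.77-fold higher and Dcpp3 at least 2.89-fold lower. In the knockout tumor S100a8 was 2.89-fold lower, S100a9 at least 2.36-fold lower and Dcpp3 at least 3.14-fold higher. S100a9 in the gland was thus not past 2-fold by this bound.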

How the results depend on the processing

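No paired analysis was possible because each group is 1 array, and none could be left out in turn. The counts of genes higher and lower in the knockout gland, 78 and 21 as reported, were 37 and 38 with each array centred on its median, which put the median of all genes at -0.23, 48 and 30 after quantile normalization, and 51 and 28 after cyclic loess. They were 112 and 25 with an offset of 1, 20 and 17 with the offset at the pooled median, 52 and 19 with the floor on the mean of the 2 arrays, 32 and 8 with the floor on both arrays, 147 and 35 with no floor, 70 and 20 with the median over the probe sets of a gene, and 67 and 10 without probe sets marked as shared. The cause was not tested beyond the settings' own construction: a larger offset shrinks folds, and a stricter floor leaves fewer genes. The 21 lower genes remained past 2-fold under each scaling, and of the 78 higher genes 37, 47 and 50 did under centring, quantile normalization and loess. None of the 62 named genes past 2-fold changed sign under an alternative, and 32 fell below 2-fold under at least 1. For the signs this was largely fixed in advance. A change of offset cannot reverse a sign, and a shift of 0.23 cannot reverse a 2-fold difference. The floor settings do not alter the value of a gene and were not applied here. Genes whose probe sets are all marked as shared were missing from the setting without these. Of 65 list medians 29 kept their sign under all 10 alternatives, and 43 did so relative to the median of all genes. The other 36 changed sign under at least 1 alternative, 32 of them medians under 0.22 in size. The 4 larger ones were those of plasma cell genes under centring (-0.002, from 0.22), neutrophil genes with the floor on both arrays (-0.31, from 0.94), and platelet genes (-0.027, from 0.24) and the Ly6 family (0.10, from -0.41) with no floor. The B cell surface median ranged from 0.80 to 1.31, the T cell median from 0.46 to 0.82, the brown fat median from -0.74 to -0.13, the collagen median from 0.12 to 0.46 and that of complexes I and II from -0.57 to -0.24. The salivary median ranged from -3.81 to -0.08, the latter with the floor on both arrays, which leaves out the 10 lower genes.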
